A study of Mus musculus with 15 samples.

Results

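Hnf4a, Foxa1, Foxa2, Foxa3, Cebpa, Cebpb, Onecut1, Prox1 and Nr5a2, transcription factors that hold hepatocytes in their differentiated state, were followed in livers of mice with and without chemical induction of tumours and delivery of the growth arrest gene Gas1. They were found by their symbols on the array, which gave 9 genes of the 22032 gene symbols measured, read by 11 of the 55681 probes that are not controls. The data are single-colour microarrays of liver RNA from CD1 male mice in 3 groups. Group C received saline at day 15 of life and then empty plasmid. Group T received diethylnitrosamine (DEN), a liver carcinogen, at 25 µg per g at day 15 and then empty plasmid. Group G received the same DEN and then the plasmid pcDNA3/CAG-HAGas1, in which the CAG promoter drives HA-tagged Gas1. All 3 groups had the plasmid given as 50 µg by weekly hydrodynamic gene delivery, a rapid injection into the tail vein, from week 28 to week 34, and livers were taken at week 35. According to the study this delivery reaches only some of the liver cells, mainly those near blood vessels. The sample records instead state an age of 10 weeks, and the ages of the study's methods are given here. C comprised 3 livers, T 4 and G 6.

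Hepatocyte identity rests on a small set of factors that bind each other's regulatory regions as well as the genes of plasma proteins, lipid transport and metabolism. FOXA proteins open compacted chromatin in the early endoderm, HNF4A and the C/EBP proteins switch on the genes of the mature liver cell, and their loss in hepatocellular carcinoma accompanies dedifferentiation. As whole pieces of liver were used, fewer cells of a type and less RNA per cell cannot be told apart in any value given here.

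The number of spots well above background lay between 15707, in the liver C2, and 29765, in the liver G4, and no spot was saturated. In C, arrays 3 and 4 are marked with a single RNA code, and in T this holds for arrays 4 and 5. The SD of log2 differences within these pairs came to 0.502 and 0.609 of the SD of the closest remaining pair in the group. The sample titles number these arrays apart, and the labels do not say whether they are repeat arrays of a liver. Each pair was taken as 1 liver and averaged, so that 15 arrays gave 13 livers. Gas1 itself, read by 3 probes, had a mean log2 signal of 6.53 ± 0.197 in C (SD, n = 3), 6.53 ± 0.0852 in T (n = 4) and 6.61 ± 0.107 in G (n = 6), and G against T was 0.08 on the log2 scale (limma adjusted p = 0.765). Whether these probes read the plasmid's transcript is not given in the sources used here. The livers are named by group and array number, as C2 or G6.

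The promoters of Hnf4a and Foxa3 are shown because these were the members with the smallest p-values. RefSeq promoters on GRCm38.p6 were found for all 9 genes, and the 250 bases before each of 14 start sites were searched on both strands for short forms of the sites of the factors themselves. These were TGTTTAC for FOXA, TTGCNNAA for C/EBP, CAAAGTCCA for HNF4, ATTGATT for ONECUT and CAAGGTCA for NR5A2. Capitals in the sequences mark a match.
Hnf4a, upstream start site, chr2:163506607-163506856, plus strand: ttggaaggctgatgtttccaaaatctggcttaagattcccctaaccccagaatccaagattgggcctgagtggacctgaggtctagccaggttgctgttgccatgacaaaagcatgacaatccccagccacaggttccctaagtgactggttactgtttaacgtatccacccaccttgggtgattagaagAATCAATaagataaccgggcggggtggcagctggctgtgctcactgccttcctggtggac
Hnf4a, downstream start site, chr2:163546905-163547154, plus strand: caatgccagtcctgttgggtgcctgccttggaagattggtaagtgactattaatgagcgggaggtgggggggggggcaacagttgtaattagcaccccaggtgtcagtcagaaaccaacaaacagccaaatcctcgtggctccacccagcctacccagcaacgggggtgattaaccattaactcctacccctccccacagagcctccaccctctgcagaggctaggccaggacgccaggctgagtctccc
Foxa3, chr7:19023540-19023789, minus strand: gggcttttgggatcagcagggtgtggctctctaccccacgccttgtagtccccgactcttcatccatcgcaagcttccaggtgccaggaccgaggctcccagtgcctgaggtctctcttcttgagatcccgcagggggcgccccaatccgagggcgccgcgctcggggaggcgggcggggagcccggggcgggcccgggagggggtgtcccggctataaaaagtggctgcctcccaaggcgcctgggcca
The ONECUT letters stood 60 bases before the upstream start of Hnf4a, on the strand opposite to the gene, and none of the 5 forms was present in the downstream Hnf4a window or the Foxa3 window. Of the other windows, Foxa1 held the FOXA letters 141 bases before its start and the first Foxa2 window the ONECUT letters 213 bases before its start. The second Nr5a2 window held the C/EBP letters. Among all 32817 promoter windows of the same length, 2.61% held the ONECUT letters, 3.16% the FOXA letters, 9.57% the C/EBP letters, 0.384% the HNF4 letters and 1.33% the NR5A2 letters. A match is a run of letters and was not tested for binding.

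No member passed the threshold in any comparison. With limma and Benjamini-Hochberg adjustment over all 22032 genes, 0 of the 9 had an adjusted p under 0.05 in T against C, where 2.37% of all genes did, and 0 of 9 did in G against T, where 0.132% did. In G against C, 0 of 9 passed and 0.427% of all genes did. At an unadjusted p under 0.05 there were 2 members in T against C, against 20.2% of all genes, 2 in G against T, against 10.8%, and 0 in G against C, against 13.3%. Livers of the compared groups did not overlap for 1 of 9 members in T against C (18.6% of all genes), for 1 in G against T (2.91%) and for 0 in G against C (5.54%). The median log2 fold change of the 9 was 0.11, -0.02 and 0.12 in these comparisons, beside medians over all genes of 0.005, -0.008 and -0.004. The comparisons share groups of livers and are not independent of each other.

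**Figure D1:**
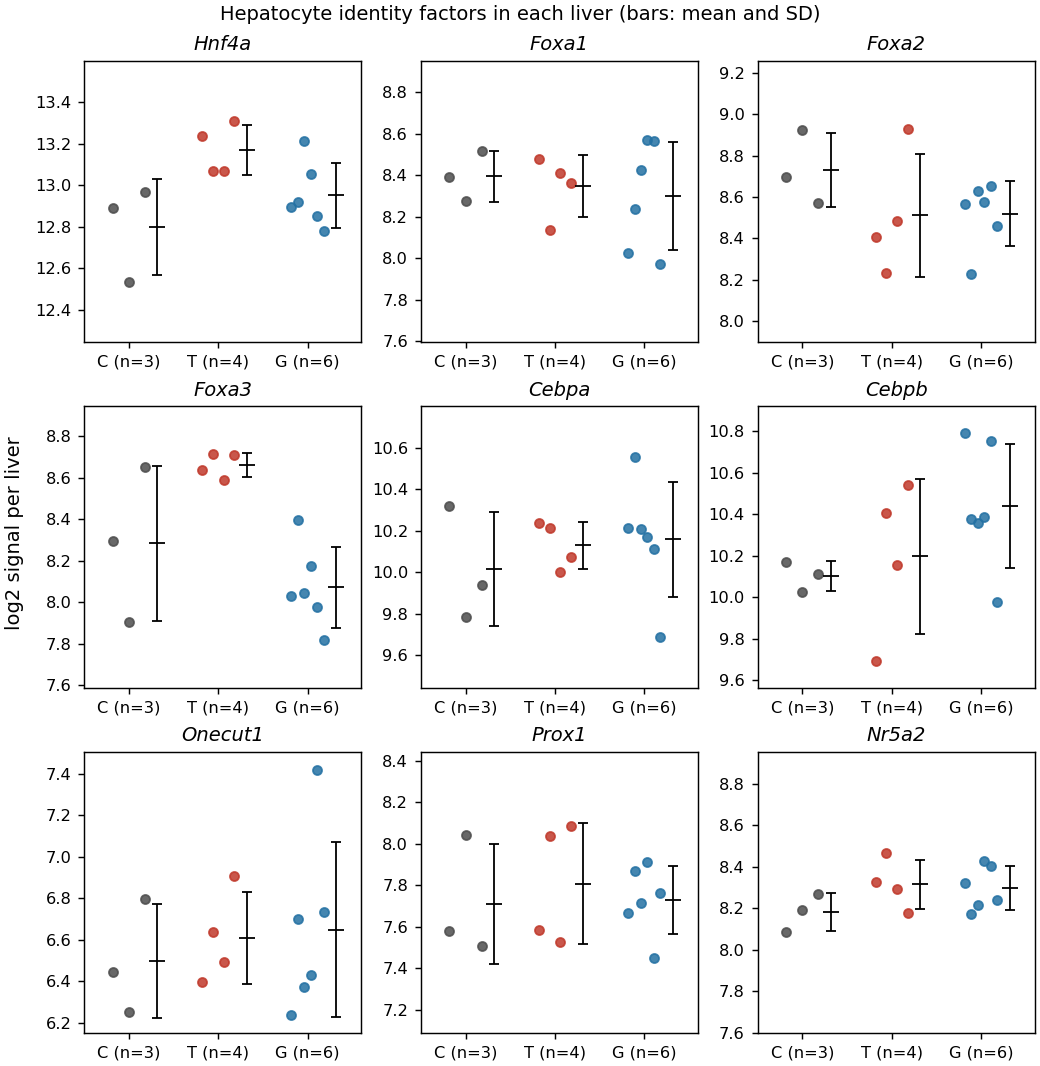
Log2 signal of each factor (vertical axes, which span the same number of log2 units in every panel) in each liver of C (n = 3), T (n = 4) and G (n = 6), with the group mean and SD as bars. Foxa3 in G lies below every T liver, with a highest value of 8.39 against a lowest of 8.59, and Hnf4a in T lies above every C liver, with a lowest value of 13.07 against a highest of 12.97, whereas the groups overlap in the other panels.

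Hnf4a encodes a nuclear receptor that is required for the mature hepatocyte programme. Its probe (mm9, chr2:163398548-163398607, plus strand) was well above background on all 15 arrays. The log2 signal was 12.89, 12.53 and 12.97 in the C livers and 13.24, 13.07, 13.07 and 13.31 in the T livers. In G the lowest liver was at 12.78, the median at 12.91 and the highest at 13.21. All 4 T livers were above all 3 C livers, as for 10.2% of all genes with complete values, and the G livers overlapped both groups. T was higher than C by 0.37 (SE 0.118, 95% interval 0.12 to 0.63), a ratio of 1.30, with an unadjusted limma p of 0.00773 and an adjusted p of 0.106. The exact two-sided permutation test over these livers gave p = 0.0286, the smallest that 4 against 3 can give. G against T was -0.22 (SE 0.1, 95% interval -0.44 to -0.003, limma adjusted p = 0.453; exact permutation p = 0.0524). G against C was 0.15 (95% interval -0.08 to 0.39, limma adjusted p = 0.594).

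The difference between T and C was smaller without the liver C2, which had the fewest spots above background and the lowest Hnf4a value of all 13 livers. Its value was then 0.24 (limma adjusted p = 0.286). Within slide 1 it was 0.42 and within slide 2 it was 0.30, where the livers C3 and T4 had an array on both slides. A probe for the antisense gene Hnf4aos, named 0610008F07Rik on the array (mm9, chr2:163319601-163319660, minus strand), had means of 7.93 in C, 8.26 in T and 8.04 in G. Its T against C value, fitted probe by probe, was 0.34 (SE 0.171, limma adjusted p = 0.334).

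Foxa3, a FOXA member of the adult liver that acts on genes of glucose metabolism, gave the largest difference among the members. Its probe (mm9, chr7:19599053-19599112, minus strand) was well above background on all arrays. The log2 signal was 8.29, 7.90 and 8.65 in C and 8.64, 8.71, 8.59 and 8.71 in T. In G the lowest liver was at 7.82, the median at 8.04 and the highest at 8.39. Every G liver was below every T liver, as for 1.91% of all genes with complete values in both groups, and the T livers lay within an SD of 0.0591. The C livers spread more widely, with an SD of 0.374, and overlapped both other groups.

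G against T was -0.59 for Foxa3 (SE 0.129, 95% interval -0.87 to -0.31), a ratio of 0.665 with an interval of 0.547 to 0.807. The unadjusted limma p of 0.000577 ranked 118 among all genes, and the adjusted p was 0.107. The exact two-sided permutation test gave p = 0.00476, the smallest that 6 against 4 can give. T against C was 0.38 (SE 0.153, 95% interval 0.05 to 0.71, limma adjusted p = 0.189; exact permutation p = 0.0857), and it moved with the C livers, to 0.19 without C2 and to 0.56 without C3 (limma adjusted p = 0.508 and 0.0592). G against C was -0.21 (95% interval -0.52 to 0.10, limma adjusted p = 0.57), and it was -0.40 without C2 and -0.03 without C3.

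Each slide held arrays of all 3 groups, 2 of C, 2 of T and 3 of G on slide 1 and 2, 3 and 3 on slide 2. For Foxa3 the difference between G and T was -0.69 within slide 1 and -0.52 within slide 2, and the T against C value was 0.43 and 0.18. The mean of Foxa3 on slide 1 was 8.28 in C, 8.70 in T and 8.01 in G, and on slide 2 it was 8.47, 8.65 and 8.13. The order of the group means was T, C, G on both slides. As C3 and T4 are on both, the values of C and T on the slides share livers and are not independent of each other, whereas each G liver is on 1 slide. For Hnf4a, G against T was -0.17 within slide 1 and -0.32 within slide 2, while G against C turned from 0.25 to -0.03.

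**Figure D2:**
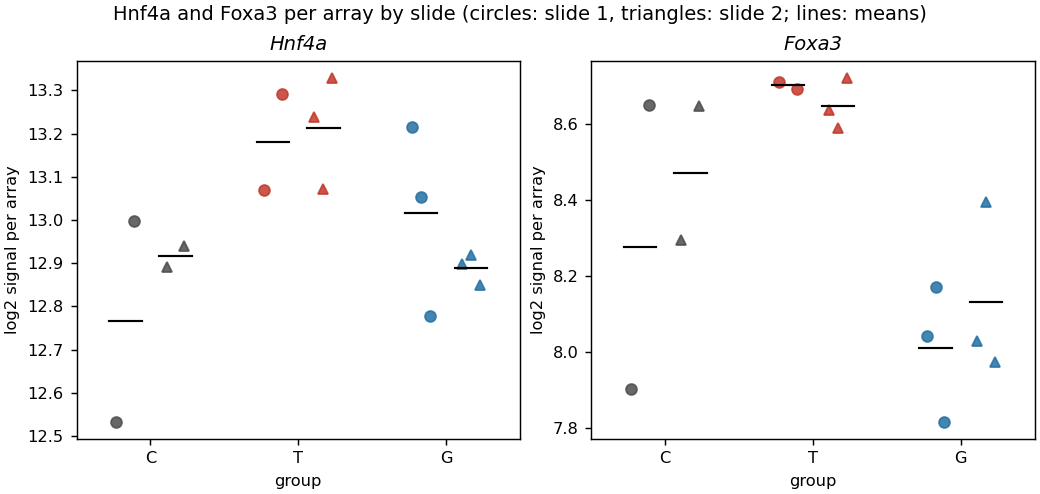
Log2 signal per array (vertical axis) of Hnf4a and Foxa3 on slide 1 (circles) and slide 2 (triangles) for C, T and G, with the mean of each group and slide as a line. On either slide the Foxa3 values of T, from 8.59 to 8.72, lie above those of G, from 7.82 to 8.39.

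For Foxa1 and Foxa2 the groups overlapped in every comparison. Foxa1 (mm9, chr12:58641764-58641823, minus strand), which acts early in liver specification, was at 8.39, 8.28 and 8.52 in C and at 8.48, 8.14, 8.41 and 8.36 in T. In G the lowest, median and highest livers were at 7.97, 8.33 and 8.57. The C and T ranges both lay inside the G range. T against C was -0.05 (95% interval -0.37 to 0.27, limma adjusted p = 0.905) and G against T was -0.05 (95% interval -0.32 to 0.22, limma adjusted p = 0.93). Between G and C it was -0.10 (95% interval -0.39 to 0.20, limma adjusted p = 0.817).

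Foxa2, the pioneer factor shared by liver, lung and pancreas, was read by overlapping probes (mm9, chr2:147868614-147868673 and chr2:147868669-147868728, both on the minus strand). The mean of its probes was 8.70, 8.92 and 8.57 in C, and 8.41, 8.23, 8.48 and 8.93 in T. In G the lowest, median and highest livers were at 8.23, 8.57 and 8.65. In T, 3 livers were below all C livers and T4 was level with the highest of them, C2. T against C was -0.22 (95% interval -0.54 to 0.10, limma adjusted p = 0.453), and the probes gave -0.06 and -0.37 when fitted apart (adjusted p = 0.888 and 0.257). G against C was -0.21 (95% interval -0.51 to 0.09, limma adjusted p = 0.554), with -0.05 and -0.38 from the probes, so the size of both values depended on the probe. G against T was 0.01 (95% interval -0.27 to 0.28).

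Cebpa encodes the C/EBP protein that restrains division and drives metabolic genes in resting hepatocytes. Its probe (mm9, chr7:35906517-35906576, plus strand) gave 10.32, 9.79 and 9.94 in C and 10.23, 10.21, 10.0002 and 10.07 in T. In G the lowest, median and highest livers were at 9.69, 10.19 and 10.56. The T livers lay inside the range of C and both inside that of G. T against C was 0.12 (95% interval -0.25 to 0.48), G against T 0.03 (95% interval -0.28 to 0.33) and G against C 0.14 (95% interval -0.19 to 0.48), with limma adjusted p of 0.756, 0.969 and 0.746.

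Cebpb encodes the C/EBP protein of the acute phase and of regenerating liver. Its probe (mm9, chr2:167515828-167515887, plus strand) gave 10.17, 10.03 and 10.11 in C and 9.69, 10.40, 10.15 and 10.54 in T. In G the lowest, median and highest livers were at 9.98, 10.38 and 10.79. The C livers were close together (SD 0.0717), 5 of the 6 G livers were above all of them, and T1 was the lowest of all livers. G against C was 0.34 (SE 0.189, 95% interval -0.07 to 0.75, limma adjusted p = 0.478; exact permutation p = 0.0952), and G against T was 0.24 (95% interval -0.13 to 0.62, limma adjusted p = 0.655). The latter was 0.07 without T1.

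Onecut1 encodes HNF6, a factor of liver and bile duct development. It was the dimmest of the members against its background, being well above background on 2 of 4 C arrays, 5 of 5 T arrays and 5 of 6 G arrays (mm9, chr9:74710921-74710980, plus strand). Its log2 signal was 6.45, 6.25 and 6.79 in C and 6.39, 6.64, 6.49 and 6.91 in T, and in G the lowest, median and highest livers were at 6.24, 6.56 and 7.42. The highest value was in G5, with the next of all livers at 6.91, and the outlier test given at the end did not flag it. The intervals were wide, from -0.40 to 0.63 in T against C and from -0.39 to 0.48 in G against T (limma adjusted p = 0.848 and 0.968). G against C was 0.15 (95% interval -0.32 to 0.63, limma adjusted p = 0.819).

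Prox1, which marks hepatoblasts, hepatocytes and lymphatic endothelium, was read on mm9 at chr1:191945785-191945844 on the minus strand. It was at 7.58, 8.04 and 7.51 in C and at 7.59, 8.04, 7.53 and 8.08 in T, and in G the lowest, median and highest livers were at 7.45, 7.74 and 7.91. C2, T2 and T4 were higher than the other livers of C and T, which lay close together. T against C was 0.10 (95% interval -0.26 to 0.46) and G against T was -0.08 (95% interval -0.38 to 0.22), with limma adjusted p of 0.796 and 0.887. Between G and C the value was 0.02 (95% interval -0.31 to 0.35).

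Nr5a2 encodes LRH-1, a nuclear receptor for genes of bile acid synthesis. Its probes (mm9, chr1:138740903-138740962 and chr1:138741712-138741771, minus strand) were well above background on 15 and 13 of the 15 arrays. Their mean was 8.09, 8.19 and 8.27 in C and 8.33, 8.47, 8.29 and 8.18 in T, and in G the lowest, median and highest livers were at 8.17, 8.28 and 8.43. This mean of the probes had the narrowest intervals of the members, and in it 3 of the 4 T livers were above all C livers. On the single probes C and T overlapped. The first ran from 9.69 to 10.23 in C and from 10.06 to 10.38 in T. The second ran from 6.15 to 6.68 in C and from 6.28 to 6.56 in T. For the mean, T against C was 0.13 (SE 0.0808, 95% interval -0.04 to 0.31, limma adjusted p = 0.394). By the single probes it was 0.24 (SE 0.137) and 0.03 (SE 0.121), so the narrow interval was that of the mean only. G against T was -0.02 (95% interval -0.17 to 0.13) and G against C was 0.12 (95% interval -0.05 to 0.28).

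**Figure D3:**
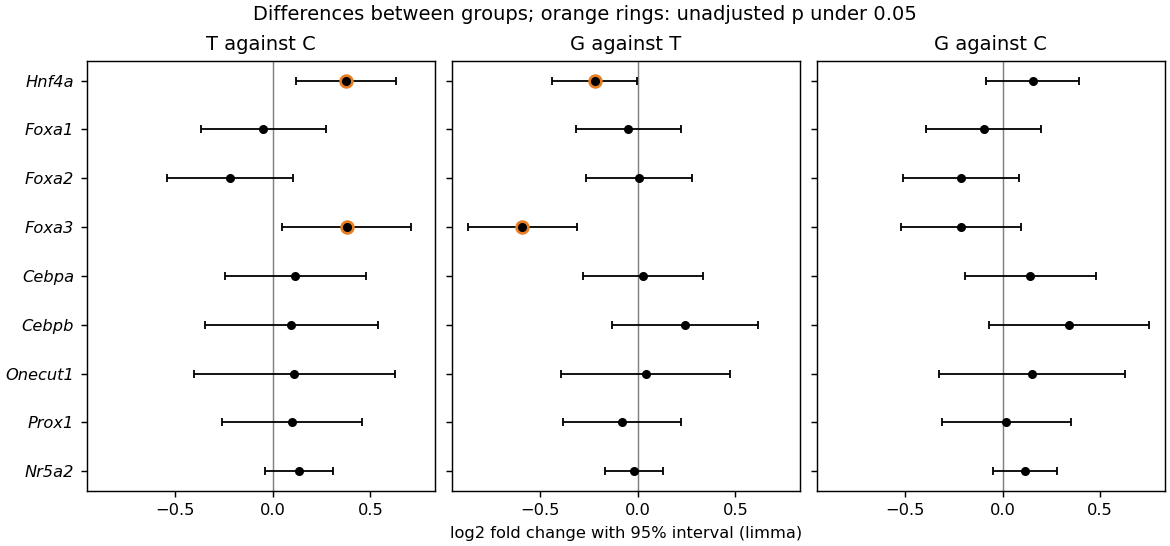
Log2 fold change (horizontal axis) of the 9 factors in the 3 comparisons, with 95% intervals from limma, and orange rings at an unadjusted p under 0.05. The rings are at Hnf4a and Foxa3, with 0.37 and 0.38 in T against C and -0.22 and -0.59 in G against T, and every interval in G against C crosses 0.

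Across livers, some samples were at the end of their group for many members. C2 was the lowest C liver in 6 of the 9 members and the highest in Foxa2 and Prox1. C3 was the highest C liver in 5, T4 the highest T liver in 5 and G6 the lowest G liver in 5. With so few livers per group, a liver can be at an end for several members by chance. Such counts were not made over all genes, so whether they set these livers apart was not tested. G6 was also the G liver with the highest Des, a stellate cell marker, and the highest H19, a fetal liver gene. C2 also had the fewest spots above background (15707), and the part of this in its values was not tested. For the 3 members with the largest SD over livers among those above background on all arrays, the nearest patterns were sought among 7945 genes by the root mean square difference of centred log2 values over 13 livers. Nearest to Foxa3 (SD 0.331) were F7, H2-T9 and Slc43a1, at 0.148, 0.159 and 0.168, beside a median of 0.349 over all genes. F7, the clotting factor VII gene, had means of 9.91 in C, 10.27 in T and 9.84 in G. Nearest to Cebpb (SD 0.31) were C2cd2l and Cdk18, both at 0.174, and Hint2 at 0.196, beside a median of 0.336. Nearest to Cebpa (SD 0.227) were Tap2, March5 and Ccdc101, at 0.119, 0.122 and 0.127, beside a median of 0.265.

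Textbook targets of these factors passed the threshold in T against C only. Of 9 targets of HNF4A, Ttr and Mttp fell in T, and 0 rose, where 1.2% of all genes fell and 1.18% rose. Ttr, the thyroid hormone and retinol carrier transthyretin, had a log2 signal of 16.59, 16.85 and 17.03 (lowest, median and highest) in C, between 15.60 and 16.06 in T and between 16.26 and 16.62 in G. The T livers were below all others. T against C was -1.004 (SE 0.124, 95% interval -1.27 to -0.74, limma adjusted p = 0.00425), and G against T was 0.60 (95% interval 0.37 to 0.82, limma adjusted p = 0.0563). Mttp, which loads lipid onto apolipoprotein B, was between 9.84 and 9.90 in C, between 9.30 and 9.46 in T and between 9.55 and 9.93 in G. T against C was -0.46 (SE 0.0849, 95% interval -0.65 to -0.28, limma adjusted p = 0.02) and G against T was 0.29 (limma adjusted p = 0.138). When arrays were scaled by their medians and not quantile normalized, both T against C values turned, to 0.18 for Ttr and 0.47 for Mttp (limma adjusted p = 0.718 and 0.329), and in the authors' deposited table Ttr was at -0.61 (limma adjusted p = 0.106). Over 29 other settings Ttr passed in 22 and Mttp in 19.

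The median over the HNF4A targets was -0.12 in T against C and 0.04 in G against T. Apoa1, the main protein of high-density lipoprotein, stood at 0.55 in T against C and -0.36 in G against T (limma adjusted p = 0.0657 and 0.305). Of the 6 FOXA targets only Ttr was called, and 3 had positive and 3 negative values in T against C. Alb (albumin) was at -0.36 and Pck1, an enzyme of glucose production, at 1.22 in T against C (limma adjusted p = 0.163 and 0.129). Pck1 was at 0.73 in G against T and 1.95 in G against C (limma adjusted p = 0.482 and 0.0511). G6pc, which releases free glucose, was at 1.31 in G against T (limma adjusted p = 0.268). None of the 6 CEBPA targets was called in any comparison by limma, with 2 at an unadjusted p under 0.05 in each. The shares of all genes were 20.2% in T against C, 10.8% in G against T and 13.3% in G against C.

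The 5 CEBPB targets, acute phase genes, had positive values in T against C (5 of 5, median 0.84) and negative values in G against T (5 of 5, median -1.07). By limma 0 were called in either, with 2 and 3 at an unadjusted p under 0.05, beside 20.2% and 10.8% of all genes. Hp, haptoglobin, was at 0.84 and -0.99 (limma adjusted p = 0.144 and 0.145). Lcn2, an iron-carrier-binding protein of inflammation, was at 2.62 and -3.04 with SEs of 1.19 and 1 (limma adjusted p = 0.239 and 0.278), and its T livers ran from 8.76 to 15.40. The liver T2 stood apart in Hp, at 18.34 with the next T liver at 17.03, and in Orm1, at 14.37 with the next at 11.98. Without T2, a setting chosen after seeing the data, the values were positive for 4 of 5 targets in T against C (median 0.13) and negative for 5 of 5 in G against T (median -0.40), with Hp at 0.49 and -0.64 (limma adjusted p = 0.155 and 0.197). Cebpb in the comparisons over all livers was at 0.10 and 0.24. Of the 6 NR5A2 targets, 0 were called by limma in any comparison. At an unadjusted p under 0.05 there were 3, 0 and 4, beside 20.2%, 10.8% and 13.3% of all genes. Abcg5, a sterol transporter, was at 0.64 in T against C and in G against C (limma adjusted p = 0.0785 and 0.123).

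**Figure D4:**
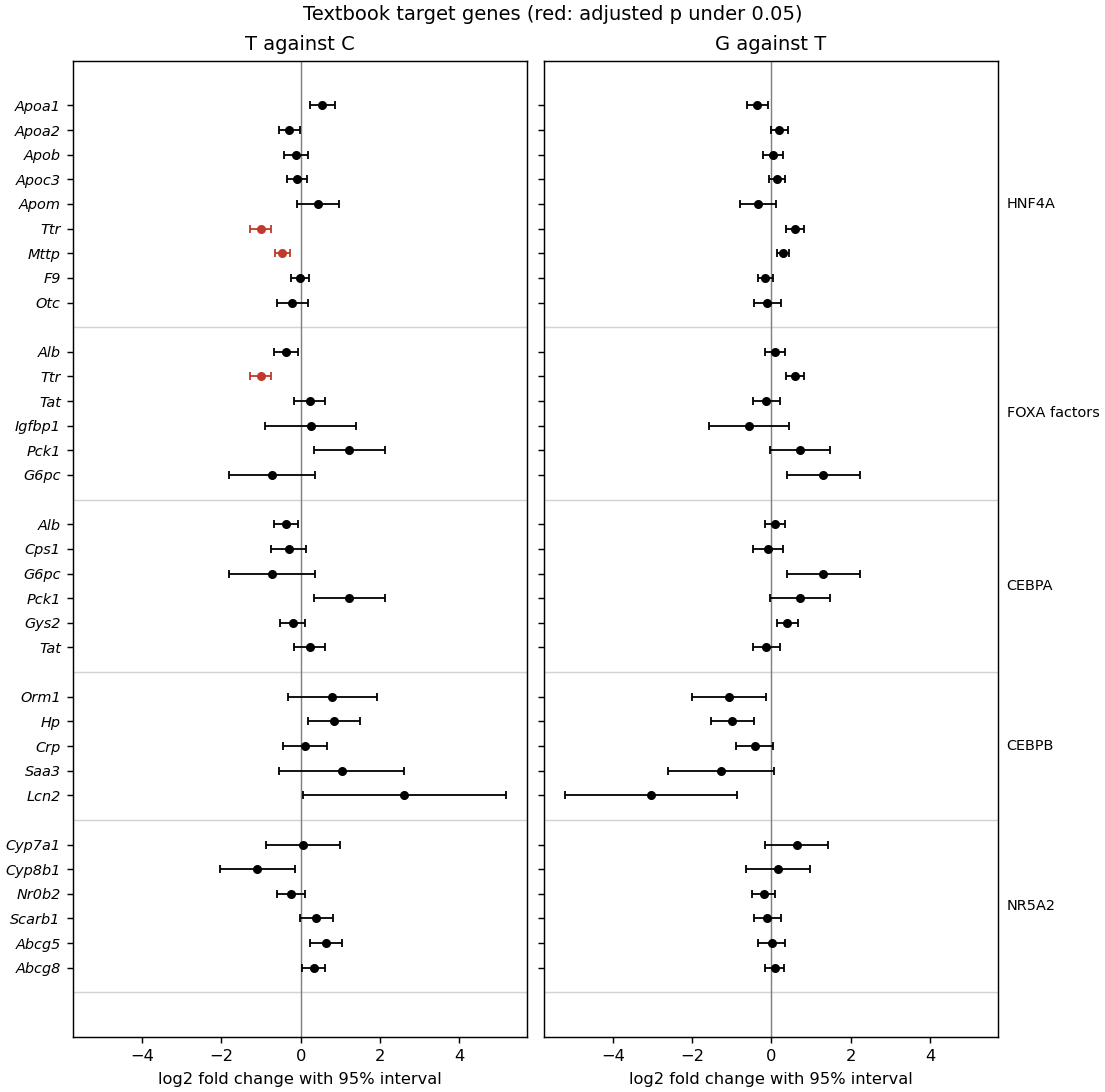
Log2 fold change (horizontal axes, 95% intervals from limma) of textbook targets, grouped by factor, in T against C and G against T, with an adjusted p under 0.05 in red. Ttr, shown under HNF4A and under FOXA factors, and Mttp are red at -1.004 and -0.46 in T against C, and no target is red in G against T.

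Of 22 other liver transcription factors, 0 were called by limma when T was set against C or G against either group. At an unadjusted p under 0.05 there were 2 in T against C, where 20.2% of all genes were. In G against T there were 2, beside 10.8% of all genes, and in G against C 8, beside 13.3%. Gata4 stood at -0.44 and Rxra at 0.34 in T against C (limma adjusted p = 0.0977 and 0.0876). Ppara, the fatty acid receptor, was at 0.42 in G against C (limma adjusted p = 0.208).

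Markers of cell types were set beside these values. All 8 hepatocyte markers were well above background on every array, and the log2 of their summed signal ran from 19.004 to 19.09 in C, from 18.42 to 18.94 in T and from 18.64 to 18.90 in G. Alb, the brightest of them, made up much of this sum, with mean log2 signals of 18.20 in C, 17.84 in T and 17.93 in G. Singly, 3 of the 8 hepatocyte markers had positive and 5 negative values in T against C (median -0.21). In G against T, 4 were positive and 4 negative. Only Ttr was called, in T against C, where 2.37% of all genes were. Among 5 fetal liver genes, Afp, alpha-fetoprotein, rose in T by 2.47 (SE 0.411, limma adjusted p = 0.0159), with 1 of 4 C arrays above background. Gpc3, a proteoglycan of liver tumours, was above background on 0 of 4 C arrays and 5 of 5 T arrays and at least 1.31-fold higher in T (measured means 5.94 and 6.44, limma adjusted p = 0.0493). The log2 sum of the fetal genes ran from 8.29 to 8.42 in C, from 9.10 to 10.30 in T and from 8.52 to 12.03 in G, the last value with the H19 of G6 at 11.83. Of 5 macrophage markers measured, Emr1 rose in T by 0.31 (limma adjusted p = 0.0267), with 2 of 4 C arrays above background. The list had 3 positive and 2 negative values in T against C (median 0.06), the negative ones being Clec4f, a marker of Kupffer cells, at -0.06 (limma adjusted p = 0.905), and Cd68, which was above background on 1 of 4 C arrays and 0 of 5 T arrays (limma adjusted p = 0.101). Over 29 other settings the values of Afp, Gpc3 and Emr1 stayed above 0 and passed in 23, 11 and 19. Their size depended on the setting, from 2.11 to 5.045 for Afp, from 0.355 to 1.155 for Gpc3 and from 0.21 to 0.88 for Emr1. The highest of each was with the processed signal. The log2 sum of the macrophage markers ran from 10.49 to 10.89 in C, from 10.45 to 11.01 in T and from 10.43 to 11.14 in G.

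Markers of bile duct (6 genes), endothelium and lymph vessels (7), lymphocytes (5), stellate cells and fibroblasts (5) and exocrine pancreas (6) were also read. None was called by limma in any comparison. In T against C, 3, 1, 1, 1 and 0 had an unadjusted p under 0.05, beside 20.2% of all genes. In G against T it was 2, 0, 0, 1 and 0, beside 10.8%. The log2 sums of these lists overlapped between G and T. For bile duct they ran from 9.10 to 9.21 in C, from 8.97 to 9.10 in T and from 8.75 to 9.44 in G, and for endothelium from 10.34 to 10.78, from 10.45 to 10.69 and from 10.49 to 10.69. For lymphocytes they ran from 9.10 to 9.38 in C, from 9.24 to 9.59 in T and from 9.17 to 9.60 in G, and for stellate cells from 9.15 to 9.66, from 8.96 to 9.32 and from 9.04 to 9.98. A gene without a value in a liver added nothing to that liver's sum. Krt19 and Epcam had values in 5 of 6 G livers, and Flt4 in 2 of 3 C, 3 of 4 T and 4 of 6 G livers. Low ends of the bile duct and endothelium sums, and the overlap they give, can therefore come from missing values. Of the pancreas genes, 5 of 6 were above background on no array of C or T. In G against T, 5 of the 6 bile duct markers had positive values (median 0.15), and Sox9, above background on 5 of 5 T arrays and 3 of 6 G arrays, was at -0.35 (limma adjusted p = 0.178). In T against C, 5 of the 6 were negative (median -0.17). The part of other cell types in the values of Hnf4a and Foxa3 was not tested.

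The main differences were followed through 30 other settings. Foxa3 in G against T stayed between -0.85 and -0.52, with an unadjusted p under 0.05 in all 30 and an adjusted p under 0.05 in 1, the fit that took the 15 arrays as separate livers (-0.60, limma adjusted p = 0.0351). Hnf4a in T against C stayed between 0.24 and 1.38 and passed in 3 settings, with 15 arrays (0.36, adjusted p = 0.0429), with those arrays and the replicate number as a block (0.36, adjusted p = 0.0456), and with median scaling (1.38, adjusted p = 0.0399). Median scaling placed 2861 genes higher and 15 lower in T against C, where quantile normalization gave 259 and 264, and it called 4 members.

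**Figure D5:**
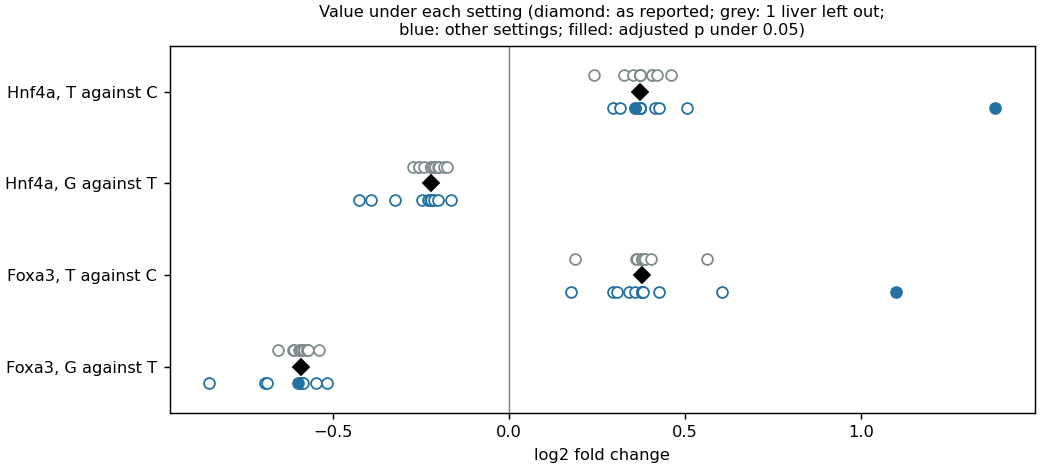
Log2 fold change (horizontal axis) of Hnf4a and Foxa3 as reported (black diamonds), with 1 liver left out (grey) and under other settings (blue), filled where the adjusted p is under 0.05. All Foxa3 values in G against T lie between -0.85 and -0.52, and the values farthest right, 1.38 for Hnf4a and 1.10 for Foxa3 in T against C, are those of median scaling.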

How the data were processed

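The authors deposited, for every array, what Agilent Feature Extraction 10.7.3.1 wrote. It holds the intensity of each spot and its local background, with flags for outliers and for signal above background, and arrays are not normalized against each other. A further deposited file is a table of log2 values by the authors, which the study's methods give as background-corrected with normexp and quantile normalized. From the deposited intensity, values were rebuilt with normexp (offset 50) and quantile normalization over the 59305 spots that are not controls. Flagged outlier spots were set to missing, and probes were centred and averaged per gene symbol. Their median absolute difference from the authors' log2 table was 0.00268. No filter on dim probes was applied. Arrays of 1 RNA code were averaged where the SD of their log2 differences was under 0.7 times that of the next closest pair. Groups were compared with limma 3.58.1 in R 4.3.3 (lmFit with 1 mean per group, eBayes, Benjamini-Hochberg adjustment over 22032 symbols, threshold 0.05), with exact two-sided permutation tests for single members. Alternatives changed the normalization, the filter, the choice of probes, the livers, the slide, the block and the test. The fit was tested on simulated data.

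Probe positions (mm9) come from the files, and promoter sequences are RefSeq's on GRCm38.p6, with positions of the different builds kept apart. The 50 bases after each start were not used. The 9 members and all other gene lists were chosen with earlier results of these data known, and 1 gene of the lists is not reported here. The other named genes are the called ones of each list, at most 4 per comparison, and otherwise those of smallest p. Genes of similar pattern were the 3 nearest to each of 3 members. The limma p-values set a difference between groups against the spread between livers of a group, pooled over the groups and moderated over genes. The number of livers limits the precision.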

Additional observations from a re-analysis of the deposited data

Results flagged for a closer look

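Of 104 groups of livers tested among the named genes, 8 held a liver far from the others of its group, where the gap at its end exceeded Dixon's critical value. Chance flags about 1 in 20 groups. None of the 18 groups of the 9 hepatocyte factors was among them. In T, liver T1 had the highest Gata4 at 7.09 (next 6.79) and the lowest Afp at 7.41 (next 8.92) and H19 at 7.39 (next 8.89), all as log2 signal. T2 had the highest Hp at 18.34 (next 17.03) and the highest Orm1 at 14.37 (next 11.98). In G, liver G6 had the highest H19 at 11.83 (next 7.72) and Des at 8.58 (next 6.62). G5 had the highest Abcg5 at 11.83 (next 11.27).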

How the results depend on the processing

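The member values that kept their direction under every alternative run were those of Hnf4a and Foxa3 in T against C and in G against T, of Nr5a2 in T against C, and of Cebpa, Cebpb and Nr5a2 in G against C. Without single livers no member was called (0 in every comparison). The number of genes called ranged from 95 (without T3) to 746 (without T1) in T against C, against 523, from 4 (without G3) to 117 (without T1) in G against T, against 29, and from 8 (without C1) to 202 (without C3) in G against C, against 94. Values of members changed sign over these fits, from -0.107 to 0.024 for Foxa1, -0.018 to 0.264 for Cebpb, -0.012 to 0.26 for Onecut1 and -0.003 to 0.264 for Prox1 in T against C. In G against T they ran from -0.118 to 0.017 for Foxa1, -0.088 to 0.144 for Foxa2, -0.052 to 0.122 for Cebpa, -0.113 to 0.14 for Onecut1, -0.174 to 0.012 for Prox1 and -0.065 to 0.031 for Nr5a2, and in G against C from -0.002 to 0.301 for Onecut1 and -0.082 to 0.184 for Prox1. Over the same fits Ttr in T against C ran from -1.12 to -0.90 and stayed called. Afp (without C2 or T3), Mttp, Emr1 and Gpc3 had adjusted p of up to 0.058, 0.0688, 0.0814 and 0.129.

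Genes called numbered (for T against C, then G against T, then G against C) 2876, 8 and 0 with median scaling (where 6624 genes had an unadjusted p under 0.05 in G against C), which moved the median of all genes in T against C to 0.12, and 57, 3 and 1 with the processed signal, which moved it to -0.40. Cyclic loess gave 186 in T against C and 1 in G against C, the filter on dim probes 63 in G against T, single probes 51 in G against C, and trend with robust moderation 19 in G against T. The 15 arrays as separate livers gave 1949, 268 and 338, the slide as a term 814, 75 and 176, slide 1 alone 46, 7 and 1, and slide 2 alone 17, 4 and 6. A t-test per gene with equal variances gave 0, 5 and 5 after adjustment, and with Welch's statistic 0, 1 and 1. These had 3827 and 2954 genes at an unadjusted p under 0.05 in T against C. For array genes the study's methods name the multtest package, in place of which limma was used here, so these counts are not those of the authors' test. Members called were 4 with median scaling in T against C (Hnf4a 1.38, Foxa3 1.10, Cebpa 1.07 and Prox1 0.75), and 1 with 15 arrays in T against C and 1 in G against T. The cause of these changes was not tested.

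Median scaling turned T against C to 0.711 for Foxa1, 0.536 for Foxa2, 0.179 for Ttr and 0.471 for Mttp, G against T to -0.071 for Foxa2 and -0.092 for Cebpa, and G against C to 0.585 for Foxa1, 0.465 for Foxa2 and 0.412 for Foxa3. Cyclic loess turned Onecut1 to -0.054 in T against C and Nr5a2 to 0.003 in G against T. The processed signal turned Foxa1 to 0.057 in T against C, and Foxa2 to -0.108, Cebpa to -0.142 and Nr5a2 to 0.096 in G against T. In G against T, the brightest or second probe put Foxa2 at -0.006, the second Nr5a2 probe stood at 0.074, the slide term put Foxa2 at -0.011, and 15 arrays put Foxa2 at -0.077, Onecut1 at -0.019 and Nr5a2 at 0.009. Slide 1 alone put Foxa1 at 0.093, Foxa2 at -0.038, Cebpa at -0.101, Cebpb at -0.235, Onecut1 at -0.263 and Nr5a2 at 0.005 in G against T. Slide 2 alone put Cebpa at -0.027, Cebpb at -0.058 and Onecut1 at -0.08 in T against C, Foxa2 at -0.115 and Nr5a2 at 0.012 in G against T, and Hnf4a at -0.027 in G against C.

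No label ties arrays of different groups with the same replicate number to a shared animal or litter, so the numbers were not taken to pair the animals. Deviations of same-numbered arrays correlated between -0.315 and 0.267 (median 0.08, n = 13 pairs). Differently numbered arrays of different groups ran from -0.317 to 0.401 (median -0.004, n = 61 pairs). With the replicate number as a block over 15 arrays, 1606, 162 and 336 genes and 1 member (in T against C) were called. This block turned Onecut1 to -0.031 in T against C, -0.036 in G against T and -0.067 in G against C, and in G against T it turned Foxa1 to 0.014, Foxa2 to -0.066 and Nr5a2 to 0.02. The signal over background limits Onecut1 and the second Nr5a2 probe, which were not above background on all arrays.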
